A study of Mus musculus with 8 samples.

Results

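The 10 enzymes described here carry out the de novo synthesis of purine and pyrimidine nucleotides. They were taken by name as rows of a table of 21859 Ensembl gene IDs: Ppat, Gart, Pfas, Paics, Adsl, Atic and Impdh2 of the purine route, and Cad, Dhodh and Umps of the pyrimidine route. All 10 matched an ID and all 10 passed the filter on low counts. RNA came from 8 cultures of the mouse leukaemia line PER-M60. Control medium was given to 4 of them, and the other 4 received osteoclast-conditioned medium, which had first been exposed to bone-resorbing osteoclasts. No genotype, agent or time is given for either group, so the medium is the only labelled difference, and all cultures are of a single line. Replicates are numbered 1 to 4 in each medium, but whether they were separately grown cultures from separate starts is not stated, so p-values measure the spread between these samples, which may be partly technical.

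Purine synthesis assembles the ring step by step on phosphoribosyl pyrophosphate (PRPP), drawing nitrogen from glutamine, glycine and aspartate and carbon from formyl folate, and ends at inosine monophosphate (IMP), from which AMP and GMP branch. Pyrimidine synthesis makes the ring first, from glutamine, bicarbonate and aspartate, and attaches the ribose phosphate late, giving uridine monophosphate (UMP). Proliferating leukaemia cells depend on both routes for RNA and DNA, and several of the enzymes are targets of antileukaemic drugs or drug candidates.

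Total counts per sample ran from 15391754 to 21637966, and pairs of samples within a medium differed by more than sampling noise (chi-square per degree of freedom 1.37 to 5.04), so no pair was counted as 1 library. No lineage is labelled. Of 10 B-lineage markers, 9 had a mean of at least 5 CPM, their summed level being 4319 to 4369 normalised CPM in control and 4612 to 4642 in osteoclast-conditioned medium. Of 10 osteoclast markers, 2 reached that mean (Acp5, and Itgb3, which was called lower, log2 fold change -0.25, edgeR adjusted p = 0.0185), Dcstamp and Ocstamp were at 0, and the summed level was 35.8 to 37.2 in control and 34.4 to 37.9 in osteoclast-conditioned medium. Of 6 T cell markers 1 reached it (Lck), with a summed level of 133 to 133.5 and 134 to 137 and with Cd3g and Cd8a at 0. Of 6 myeloid markers 1 reached it (Lyz2, which was called higher, log2 fold change 0.40, edgeR adjusted p = 0.0119), with a summed level of 6.32 to 7.19 and 7.41 to 9.16 and with Itgam and Elane at 0. Of 5 stromal markers 1 reached it (Runx2), with a summed level of 10.9 to 12.8 and 9.22 to 11.6 and with Col1a2 at 0, and 0 of 4 erythroid markers did. The part of these markers in the values below was not tested. Of all genes tested, 51.6% of the calls were higher in osteoclast-conditioned medium, against 40.7% with scaling by total counts only.

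Most of the 10 enzymes differed little between the media. Cad, the enzyme that starts pyrimidine synthesis, rose by 6.88%, and Umps, which completes it, fell by 8.13%. Ppat, which commits PRPP to purine synthesis, fell by 7.63%. The other 7 did not pass the test. In edgeR's quasi-likelihood test with Benjamini-Hochberg adjustment over the 10729 genes tested and a threshold of 0.05, 3 of the 10 members were called, against 30.5% of all genes tested, with 1 higher (15.7% of all genes) and 2 lower (14.8%). The call of Cad, the 1 higher, was lost with an offset for GC content and transcript length (log2 fold change 0.06, edgeR adjusted p = 0.131). The share called among the enzymes, 30%, lies next to the background and is no result about them as a group. Their median log2 fold change was -0.02, with 4 positive and 6 negative, against a median of -0.0087 over all genes tested, and the median absolute change of all genes was 0.09. The 95% intervals of all 10 enzymes lay within 1.2-fold in either direction (0.26 on the log2 scale).

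**Figure D1:**
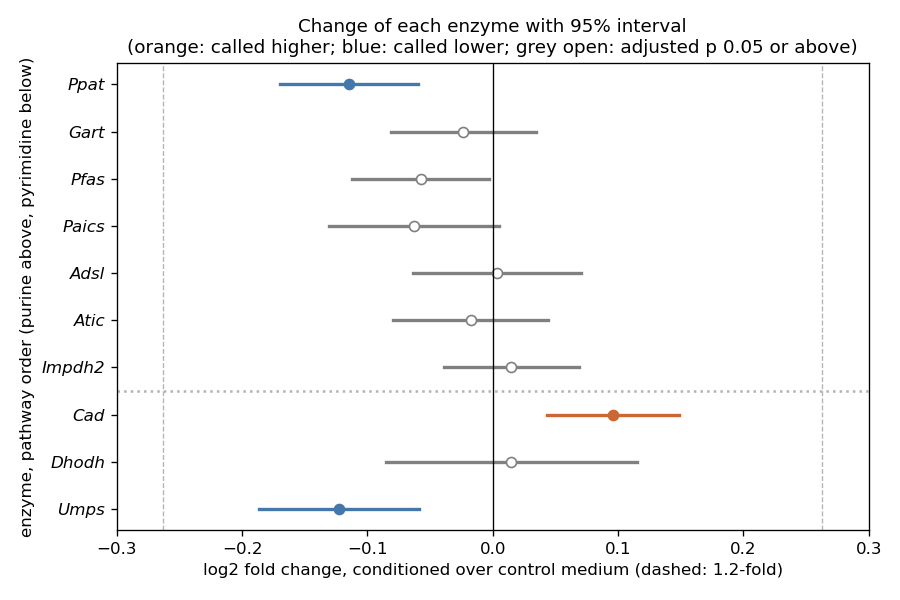
Log2 fold change of each enzyme, osteoclast-conditioned over control medium, on the x axis with its 95% interval (edgeR, n = 4 each), in pathway order on the y axis; dashed lines mark 1.2-fold. Orange marks Cad, called higher, blue marks Ppat and Umps, called lower, and open grey circles mark the 7 that were not called; every interval lies between the dashed lines.

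Values are given below as normalised CPM, that is, counts relative to library sizes that were scaled by the trimmed mean of M-values (TMM). The purine route opens with Ppat (ENSMUSG00000029246; chromosome 5, 76913249 to 76951578, minus strand, GRCm38), the amidotransferase that uses glutamine to displace pyrophosphate from PRPP. Its levels in control replicates 1 to 4 were 348, 365, 353 and 354 normalised CPM. In osteoclast-conditioned replicates 1 to 4 they were 333, 335, 328 and 316. Every control culture thus lay above every osteoclast-conditioned culture. The means were 355 ± 6.88 and 328 ± 8.69 (SD, 4 cultures a medium). The log2 fold change was -0.11 (SE 0.03, 95% interval -0.17 to -0.06, edgeR adjusted p = 0.00146). Ppat was called in all 8 fits that each left out 1 sample, with log2 fold changes from -0.12 to -0.10 and edgeR adjusted p from 0.00249 to 0.00757.

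Paics (ENSMUSG00000029247; chromosome 5, 76951307 to 76967509, plus strand), a bifunctional enzyme that carboxylates the imidazole intermediate and joins aspartate to it, lies head to head with Ppat. In GENCODE M21 the outermost starts of the 2 genes are 271 bases apart and the genes overlap between them, a stretch that makes up 6.15% of the exon bases of Ppat and 8.67% of those of Paics. Whether strand was used in counting is not given in the sources used here, so the assignment of reads in that stretch is uncertain. Paics stood at 488, 533, 493 and 481 normalised CPM in control replicates 1 to 4. It stood at 487, 489, 485 and 449 in osteoclast-conditioned replicates 1 to 4. The media overlapped: control replicate 2 was high, osteoclast-conditioned replicate 4 was low, and the remaining cultures ran from 481 to 493 normalised CPM. The log2 fold change was -0.06 (SE 0.03, 95% interval -0.13 to 0.0048, edgeR adjusted p = 0.155), and it was 0.0022 when those 2 cultures were both left out, an alternative chosen after seeing the data. Without the same cultures Ppat kept its call, at -0.08 (edgeR adjusted p = 0.00785). The ratio of Paics to Ppat counts within a sample, which no scaling can change, was 1.40 ± 0.0427 in control and 1.46 ± 0.0243 in osteoclast-conditioned medium, a difference of 0.05 on the log2 scale (two-sided exact permutation test, p = 0.0857, adjusted p = 0.171 over the 2 back-to-back pairs tested). With 4 cultures a medium, the smallest p that this permutation test can give is 0.0286. Adjusted beside the p of the other pair, even that value would not pass 0.05. The test therefore cannot decide whether the fall of Ppat past the threshold and the smaller, uncalled value of Paics differ.

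The sequences before these 2 starts are shown because the genes share this region and were measured side by side. They are the 250 bases before the RefSeq start on GRCm38.p6, 5′ to 3′ on the strand of the gene, at chr5:76951579-76951828 (minus strand) for Ppat and chr5:76951052-76951301 (plus strand) for Paics. Capitals mark matches, on either strand, to the E-box CACGTG bound by Myc and its relatives, the CCAAT box (CCAAT) and the GC box (GGGCGG). The windows lie inside the partner gene's span, since the RefSeq starts are 276 bases apart and the genes overlap there.
Ppat: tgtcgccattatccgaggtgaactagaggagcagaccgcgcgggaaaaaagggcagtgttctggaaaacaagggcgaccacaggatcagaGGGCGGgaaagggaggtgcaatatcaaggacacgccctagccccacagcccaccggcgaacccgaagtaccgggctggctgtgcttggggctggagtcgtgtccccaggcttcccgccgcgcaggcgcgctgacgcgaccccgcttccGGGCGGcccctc
Paics: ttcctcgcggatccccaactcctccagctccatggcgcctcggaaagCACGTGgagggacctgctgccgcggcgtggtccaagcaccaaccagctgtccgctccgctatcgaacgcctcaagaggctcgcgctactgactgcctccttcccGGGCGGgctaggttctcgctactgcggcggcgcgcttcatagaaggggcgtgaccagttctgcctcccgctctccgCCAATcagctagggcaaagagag
In the Ppat stretch the capitals mark 2 GC boxes, at -160 to -155 and -12 to -7 from the start. The Paics stretch holds an E-box at -203 to -198, a GC box at -99 to -94 and a CCAAT box at -23 to -19.

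Gart, a trifunctional enzyme that catalyses several steps of ring building, among them a formyl transfer from folate, ranged from 297 to 317 normalised CPM in control and from 291 to 308 in osteoclast-conditioned medium. Its log2 fold change was -0.02 (SE 0.03, 95% interval -0.08 to 0.03, edgeR adjusted p = 0.568), and the media overlapped. Son, a splicing cofactor whose gene starts 554 bases from that of Gart on the opposite strand, was at 546 ± 14.7 and 551 ± 12.2 normalised CPM (edgeR adjusted p = 0.744). The ratio of Gart to Son counts did not differ beyond the spread between cultures (0.56 ± 0.0121 against 0.547 ± 0.0241, two-sided exact permutation test, p = 0.343).

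Pfas, which adds the amide nitrogen to the glycinamide intermediate, was tight within each medium. Control replicates 1 to 4 held 205, 206, 201 and 205 normalised CPM. Osteoclast-conditioned replicates 1 to 4 held 196, 194, 198 and 197. The lowest control culture was above the highest osteoclast-conditioned culture, but the difference was small, 204 ± 2.33 against 196 ± 1.30, with a log2 fold change of -0.06 (SE 0.03, 95% interval -0.11 to -0.0028) and an edgeR adjusted p of 0.106. With Pfas, 4 of the 10 enzymes had media that did not overlap (3 lower and 1 higher). Of all genes tested, 28.2% had media that did not overlap (12.9% lower and 15.2% higher). Pfas passed the threshold with scaling by total counts only (log2 fold change -0.08, edgeR adjusted p = 0.0208) and with an offset for GC content and transcript length (-0.11, edgeR adjusted p = 0.00316).

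The late purine enzymes showed no difference past the test. Adsl, the lyase that acts in both IMP and AMP synthesis, had 138 to 147 normalised CPM in control and 135 to 146 in osteoclast-conditioned medium (log2 fold change 0.0032, 95% interval -0.06 to 0.07, edgeR adjusted p = 0.952). Atic, which adds the last formyl carbon and closes the ring, had 333 to 367 and 327 to 350 normalised CPM (log2 fold change -0.02, 95% interval -0.08 to 0.04, edgeR adjusted p = 0.7). Impdh2, the dehydrogenase that turns IMP towards GMP, had 366 to 378 and 364 to 387 normalised CPM (log2 fold change 0.01, 95% interval -0.04 to 0.07, edgeR adjusted p = 0.707). In each of the 3 the media overlapped. A processed pseudogene, Impdh2-ps, is 99.7% identical to the longest Impdh2 transcript over 1545 aligned bases (83.2% of it), so reads lost to or shared with that copy make the Impdh2 level uncertain. Pseudogenes of Paics, Gm4797 and Gm19241, are more distant, at 90.04% and 91.2% identity. No other transcript of another gene aligned to a member over at least 300 bases at 90% identity or more.

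In the pyrimidine route the first and the last enzyme moved in opposite directions. Cad (ENSMUSG00000013629; chromosome 5, 31054780 to 31078479, plus strand) encodes a single polypeptide with carbamoyl phosphate synthetase, aspartate transcarbamoylase and dihydroorotase activities. Its control replicates 1 to 4 stood at 579, 579, 567 and 562 normalised CPM. Its osteoclast-conditioned replicates 1 to 4 stood at 624, 595, 623 and 603. All 4 osteoclast-conditioned cultures were above all 4 control cultures. The means were 572 ± 8.71 and 611 ± 14.8 (SD, 4 cultures a medium). The log2 fold change was 0.10 (SE 0.03, 95% interval 0.04 to 0.15, edgeR adjusted p = 0.00499). The call held in all 8 fits that left out 1 sample (edgeR adjusted p from 0.00159 to 0.0318). It did not hold with the offset for GC content and transcript length, where the log2 fold change was 0.06 (edgeR adjusted p = 0.131). Cad has the longest transcript of the 10 enzymes, 7137 bases, and the highest GC content, 57.4%; the part of these in the lost call was not tested.

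Dhodh, the inner mitochondrial membrane enzyme that oxidises dihydroorotate and passes electrons to ubiquinone, was the lowest of the 10, with 473 to 642 counts per sample. It ranged from 29.6 to 30.8 normalised CPM in control and from 28.9 to 31.2 in osteoclast-conditioned medium. The log2 fold change was 0.01 (SE 0.05, edgeR adjusted p = 0.846), and its 95% interval, -0.09 to 0.12, was the widest of the 10.

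Umps (ENSMUSG00000022814; chromosome 16, 33954782 to 33967038, minus strand) joins orotate to PRPP and decarboxylates the product to UMP. Its control replicates 1 to 4 had 128, 130.0, 136 and 130.1 normalised CPM. Its osteoclast-conditioned replicates 1 to 4 had 119, 123, 122 and 116. All osteoclast-conditioned cultures were below all control cultures. The means were 131 ± 3.42 and 120.3 ± 3.06 (SD, 4 cultures a medium). The log2 fold change was -0.12 (SE 0.03, 95% interval -0.19 to -0.06, edgeR adjusted p = 0.00312). It was called in all 8 fits that left out 1 sample (edgeR adjusted p from 0.00195 to 0.0159). None of the 3 calls, for Ppat, Cad or Umps, passed a test against a change of 1.2-fold. Within a sample there were 4.17 to 4.53 Cad counts per Umps count in control medium and 4.82 to 5.22 in osteoclast-conditioned medium, a log2 difference of 0.22 (0.20 to 0.24 when each sample was left out in turn); the pair was chosen after its values were seen and is given without a test.

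The 250 bases before the RefSeq starts of Cad, at chr5:31054530-31054779 (plus strand), and Umps, at chr16:33967039-33967288 (minus strand), are shown because these enzymes of 1 route moved apart. Capitals again mark matches to the motifs above, and CCGCCC is the GC box on the opposite strand.
Cad: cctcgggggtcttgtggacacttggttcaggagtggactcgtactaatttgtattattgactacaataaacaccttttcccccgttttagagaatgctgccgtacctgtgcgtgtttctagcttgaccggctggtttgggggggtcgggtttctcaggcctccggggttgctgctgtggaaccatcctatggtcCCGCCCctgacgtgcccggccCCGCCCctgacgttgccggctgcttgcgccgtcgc
Umps: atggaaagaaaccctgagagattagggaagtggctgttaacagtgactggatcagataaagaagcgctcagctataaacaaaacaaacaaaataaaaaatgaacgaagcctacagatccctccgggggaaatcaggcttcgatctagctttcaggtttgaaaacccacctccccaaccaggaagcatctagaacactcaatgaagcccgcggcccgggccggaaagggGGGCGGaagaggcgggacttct
Cad holds 2 GC boxes, at -56 to -51 and -35 to -30, and Umps holds 1, at -22 to -17. Neither stretch holds the E-box or the CCAAT box.

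Over windows of 250 bases before to 50 after the RefSeq start, 8 of the 10 enzymes matched the sequence table, which holds 32851 windows, several for some genes. A GC box was in all 8 windows and in 35.7% of all windows. The E-box was in 3 of 8 (Paics, Atic and Impdh2), against 7.15% of all windows, at -203 to -198, -7 to -2 and -110 to -105 respectively. The CCAAT box was in 4 of 8 (Gart, Paics, Atic and Impdh2), against 37.4%. The C/EBP-ATF element TGATGNAA, the kind of site bound by ATF4, was in 0 of 8 (3.97% of all windows), and the palindromic NRF1 motif was in 0 of 8 (0.971%). Both strands were searched, and 2 GC boxes in Atic share a base; no other matches overlap. The windows of the enzymes are richer in G and C than most (median 63.7% against 52.7%). Within these windows, the 3 with an E-box belong to enzymes that were not called, and the 3 called enzymes have none. Bases outside the windows were not searched, and the E-box of Paics lies inside the span of Ppat, which was called. No link between E-boxes and calls can thus be read from the windows. A match is only a match of letters and says nothing about binding.

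**Figure D2:**
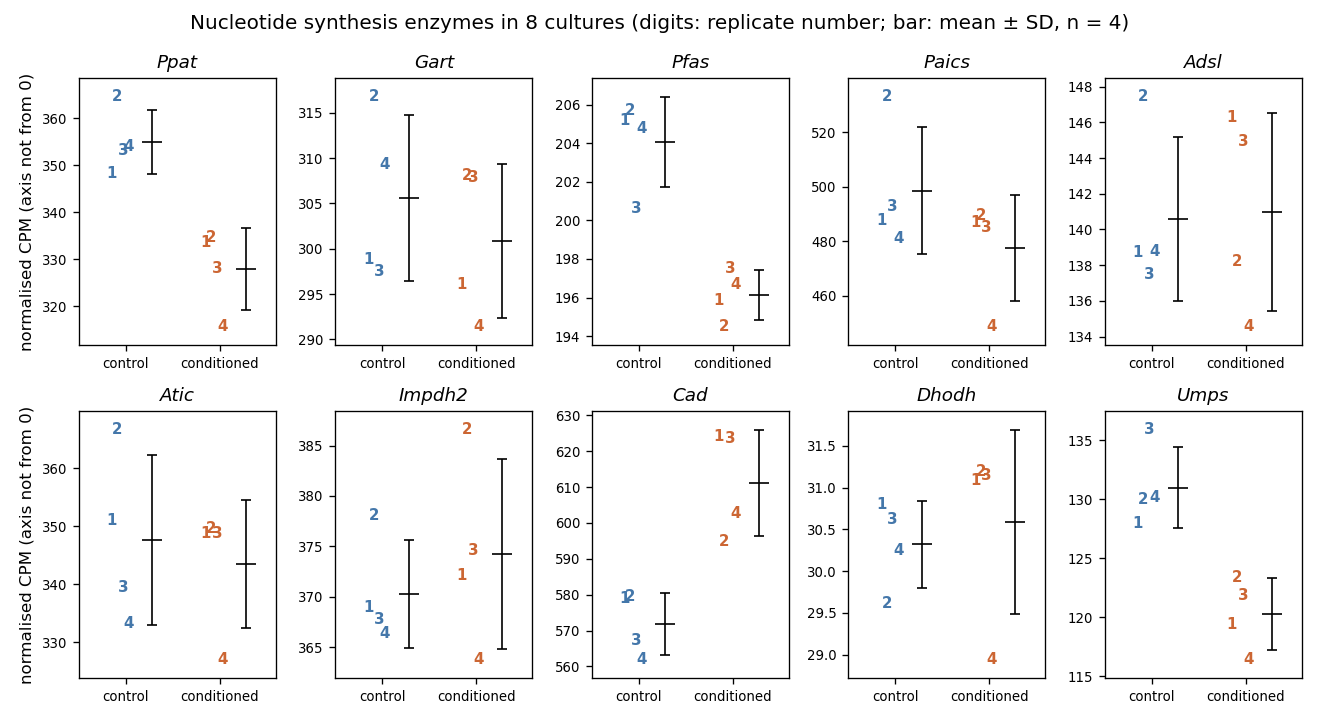
Normalised CPM (y axis, which does not start at 0 and differs between panels) of each enzyme in control and osteoclast-conditioned medium (x axis). Digits give the replicate number of each culture, and bars the mean ± SD (n = 4); the media are apart in Ppat, Pfas, Cad and Umps, and osteoclast-conditioned replicate 4 lies lowest of its medium in 8 panels.

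In 3 cultures most enzymes were the highest or the lowest of their medium. Control replicate 2 was the highest control culture for 8 of the 10, osteoclast-conditioned replicate 2 the highest of its medium for 7, and osteoclast-conditioned replicate 4 the lowest of its medium for 8. Control replicate 2 and osteoclast-conditioned replicate 4 also had the lowest and the highest mitochondrial share of counts of all 8, 0.903% and 1.44%, against 1.08 to 1.19% in the other cultures; the part of this in the enzyme values was not tested. Without these 2 cultures 3 enzymes were still called, 1 higher and 2 lower. The summed level of the 10 enzymes was 2955 ± 65.1 normalised CPM in control and 2923 ± 65.4 in osteoclast-conditioned medium, a difference of -1.07% that is smaller than the spread between cultures and became 0.0325% without osteoclast-conditioned replicate 4, 0.0157% without control replicate 2 and 1.13% without both. Control replicate 2 had the highest sum of the control cultures, and osteoclast-conditioned replicate 4 the lowest of its medium. Leaving them out could therefore only move the difference upward. The purine enzymes summed to 2222 ± 60.5 and 2161 ± 56.5, and the pyrimidine enzymes to 733 ± 7.62 and 762 ± 15.5, of which most is Cad.

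Levels can be compared between genes only per length. Per kilobase of all annotated exons, control cultures had the most of Paics (159 ± 7.46 normalised CPM per kilobase), followed by Impdh2 (120.3 ± 1.73), Ppat (80.3 ± 1.56), Cad (69.9 ± 1.06), Gart (59.4 ± 1.78), Atic (43.5 ± 1.84), Umps (37.6 ± 0.982), Pfas (25.7 ± 0.294), Adsl (25.0 ± 0.815) and Dhodh (4.79 ± 0.0826). Neighbours in this order did not overlap between cultures, except Pfas and Adsl. In osteoclast-conditioned medium Cad (74.7 ± 1.80) and Ppat (74.2 ± 1.96) overlapped, as did Adsl and Pfas. The order depends on the length used: per kilobase of the longest transcript only Dhodh kept its rank, Impdh2 and Paics came first and second (200.3 and 197 over the 8 cultures), and Atic rose to the third place (121). Under both lengths Paics and Impdh2 were the 2 highest and Dhodh the lowest. The levels of Paics and Impdh2 carry the uncertainty given above for their pseudogenes, and that of Paics also for its overlap with Ppat. None of these pseudogenes was among the genes counted, so reads lost to them were not measured.

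**Figure D3:**
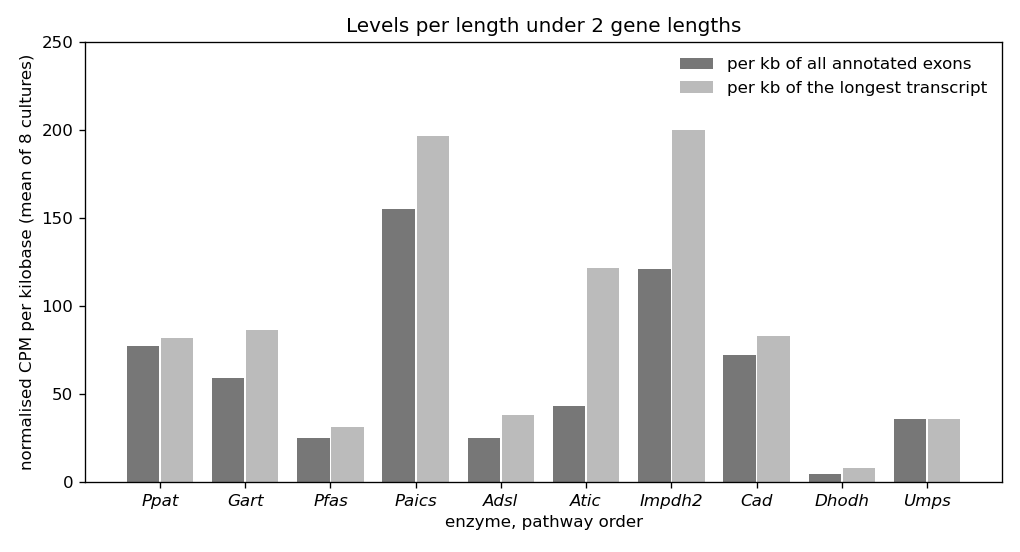
Mean level over the 8 cultures in normalised CPM per kilobase (y axis, from 0) for each enzyme in pathway order (x axis), with dark bars for the exon union and light bars for the longest transcript. Paics and Impdh2 are highest and Dhodh lowest with either length, whereas Atic goes from 43.3 to 121.

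Genes with profiles nearest to the mean profile of the enzymes over the 8 cultures were Mrfap1, Uba1 and Drg1, with root mean square differences of 0.0119, 0.0125 and 0.0128 in centred log2 CPM. These 3 were chosen for their small distances. The distances of the enzymes themselves from their mean ran from 0.0243 for Gart to 0.0665 for Cad.

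The enzymes that feed the routes were measured from fixed lists, described by counts and medians. Beside their counts stand the shares over all genes tested given above, 30.5% called, 15.7% higher and 14.8% lower. Among 10 folate enzymes tested, 4 rose and 1 fell, with a median log2 fold change of 0.14. Those that rose are mitochondrial: Aldh1l2, from 7.02 ± 0.843 to 27.9 ± 2.13 normalised CPM (log2 fold change 1.99), Mthfd2 (0.52), Shmt2 (0.26) and Mthfd1l (0.19). The mitochondrial Mthfd2l (0.13) and Mtfmt (-0.17) were not called (edgeR adjusted p = 0.396 and 0.102). Cytosolic Shmt1 fell by 0.16, and cytosolic Mthfd1, which makes the formyl folate used by Gart and Atic, was at -0.03 and not called (edgeR adjusted p = 0.503). Among 10 genes of amino acid donors, 4 rose, including Asns (129.6 ± 2.78 to 182 ± 2.56 normalised CPM), Psph and Phgdh, and Glul, glutamine synthetase, fell by 0.19 on the log2 scale. The other gene called higher was Psat1 (0.08, edgeR adjusted p = 0.0482), in which the media overlapped, and the list had 4 to 6 calls over the alternatives (4 with DESeq2 and with limma-voom), except 1 in the test against a 1.2-fold change. Of 9 tested genes of PRPP and ribose supply, 1 rose (Prpsap1) and 3 fell (Pgd by 0.19, Rpia by 0.16 and Taldo1 by 0.14), while the PRPP synthetases Prps1 and Prps2 were at -0.07 and 0.02 and not called. The calls of Taldo1, in which the media overlapped, and Prpsap1 were lost in 4 and 3 of 24 alternatives. Of 9 tested genes of the AMP, GMP and CTP branches, only Adssl1 was called (-0.11, edgeR adjusted p = 0.0469), a call that was lost in 16 of 24 alternatives. In the windows above, the C/EBP-ATF element was found in Asns and in no other called folate or donor gene with a window. Whether the enzymes differ from these lists as groups was not tested.

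**Figure D4:**
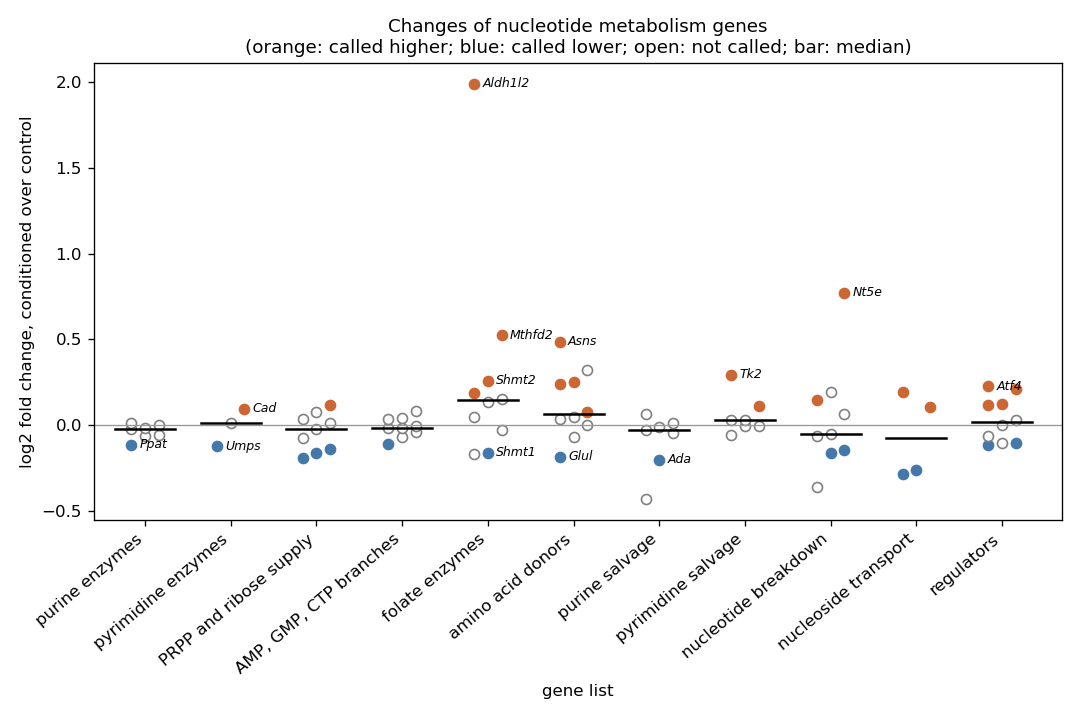
Log2 fold change, osteoclast-conditioned over control medium (y axis), of every tested gene in each list (x axis), with bars at the list medians. The purine and pyrimidine enzymes at the left lie between -0.12 and 0.10, whereas the folate list reaches 1.99 with Aldh1l2 and the breakdown list 0.77 with Nt5e.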

How the data were processed

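RNA sequencing counts of 8 PER-M60 cultures were used as the authors deposited them: whole-number counts per Ensembl gene ID, not normalized. Per the submitters' processing notes, STAR 2.7.5a, featureCounts 2.0.1 and the build mm10 were used; annotation and strand setting are not given in the sources used here. Columns were matched by the sample number in the header, with 0 left unmatched. Symbols, positions and lengths came from GENCODE M21 (GRCm38); 21817 of 21859 IDs matched. Promoter sequences came from RefSeq (GRCm38.p6).

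Genes passing filterByExpr were fitted with edgeR 4.0.16 in R 4.3.3 (TMM, robust glmQLFit, glmQLFTest, medium as the only term). Standard errors were derived from each gene's change and its F statistic. Alternatives were other scalings, filters and tests (DESeq2 1.42.0, limma 3.58.1 voom), the replicate block, thinned counts, a loess offset (span 0.5) on GC content and transcript length, stricter thresholds and leaving out samples. Pandas 2.3.3 and matplotlib 3.10.9 were used for annotation and figures.

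All 10 members are named. From each other list, called genes averaging 5 CPM or more were named, up to 3 per direction, with the genes starting back to back with a member and the 3 nearest profiles; Mthfd1l, Mthfd1, Mthfd2l, Mtfmt, Prps1, Prps2, Psat1, Hprt, Pnp, Uck2 and Tsc2 were added after their values were seen. Members and lists were chosen with earlier results of these data known. Intervals and floors cover counting error only where they rest on counts of a single sample.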

Additional observations from a re-analysis of the deposited data

Results flagged for a closer look

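For the 10 enzymes and their summed level, the highest or lowest culture of each medium was set against the other 3 (gap to the nearest divided by the range). Of 22 groups of 4 cultures, 5 had a ratio above Dixon's 95% critical value for 4 samples, where chance gives about 1 in 20 (1.1). Osteoclast-conditioned replicate 4 was the lowest of its medium in 4 of the 5: Paics at 449 normalised CPM against 485 to 489 (ratio 0.895), Atic at 327 against 348.7 to 349.6 (ratio 0.958), Dhodh at 28.9 against 31.1 to 31.2 (ratio 0.949), and the summed level at 2825 against 2950.4 to 2963 (ratio 0.907). Adsl was highest in control replicate 2, at 147 normalised CPM against 138 to 139 (ratio 0.873). These groups are not independent, since the summed level contains the enzymes. None of the 4 enzymes was called, with or without these cultures.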

How the results depend on the processing

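Of 24 alternatives, Ppat, Umps and Cad each kept their direction in all. The calls of all 3 were lost in the test against a 1.2-fold change (-0.11, -0.12 and 0.096), where 0 members were called (0 higher, 0 lower) and 227 of all genes. The same test left 2 calls in the folate list, 1 among amino acid donors, 1 in the breakdown list and 0 in each of the PRPP supply, branch, purine salvage, pyrimidine salvage, transport and regulator lists. Cad also lost its call with the GC and length offset (0.062, edgeR adjusted p = 0.131) and with that offset and the replicate block (0.063, edgeR adjusted p = 0.088), where Pfas was called at -0.11 in both, 0 members were higher and 0 branch genes were called. Scaling by total counts only called 5 members (4 lower), adding Pfas (-0.079) and Paics (-0.084, edgeR adjusted p = 0.039), turned Adsl (-0.018), Impdh2 (-0.0065) and Dhodh (-0.0065) below 0, and gave 2 branch genes and 1 pyrimidine salvage gene. Upper-quartile scaling turned Adsl to -0.0058 and called 2 branch genes. The branch list had 0 calls with no filter on low counts, DESeq2, limma-voom, thinned counts and an adjusted p under 0.01. Pyrimidine salvage had 1 call with DESeq2, thinned counts with the replicate block, and an adjusted p under 0.01, where transport had 2.

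Leaving out 1 culture, or both control replicate 2 and osteoclast-conditioned replicate 4 (added after seeing the data), gave ranges of -0.035 to 0.011 for Gart, -0.076 to 0.0022 for Paics, -0.013 to 0.052 for Adsl, -0.034 to 0.035 for Atic and -1.57% to 1.13% for the summed level. Calls ranged from 0 to 1 in the branch list, 1 to 3 in purine salvage, 1 to 2 in pyrimidine salvage and 2 to 4 in transport. Members called stayed at 3. By longest transcript, 1 of 10 levels kept its rank. The replicate block (number as a term) left 3 members called, Ppat at -0.114, Cad at 0.0956 and Umps at -0.122; calls over all genes went from 3273 to 3446. The numbers share no stated origin: same-numbered cultures had a mean correlation of 0.037 (-0.051 to 0.143), and 3 of 8 correlated best with their own number. DESeq2 called 2668 genes. The cause of these shifts was not tested. Dhodh had the fewest counts of the 10, 473 to 642 per culture, and went from 0.015 to 0.073 with thinned counts, with or without the block, and from 0.0025 to 0.042 over the fits that left out cultures; Impdh2 went from 0.0015 to 0.041 over those fits. Neither was called in any alternative.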

Other observations

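Salvage genes recycle bases and nucleosides. Of 7 purine salvage genes tested, 1 was called (30.5% of all genes tested were): Ada, adenosine deaminase, fell from 64.5 ± 2.85 to 56.1 ± 2.31 normalised CPM (log2 fold change -0.20, SE 0.04, edgeR adjusted p = 0.000321), while Hprt, which rescues hypoxanthine and guanine onto PRPP, was at 0.02 (edgeR adjusted p = 0.756). Pnp, purine nucleoside phosphorylase, had the largest change of the 7, from 2.35 ± 0.402 to 1.74 ± 0.305 normalised CPM (-0.43), and was not called (edgeR adjusted p = 0.0716). Of 7 pyrimidine salvage genes tested, 2 were called: Tk2, the mitochondrial thymidine kinase, rose by 0.29 and Uck1, a uridine-cytidine kinase, by 0.11 (edgeR adjusted p = 0.000698 and 0.0312); the Uck1 call was lost in 9 of 24 alternatives. Uck2, the other uridine-cytidine kinase, was at -0.0032 and not called.

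Nt5e (CD73), the surface enzyme that turns extracellular AMP into adenosine, rose from 20.7 ± 1.18 to 35.4 ± 1.44 normalised CPM (edgeR adjusted p = 3.98e-12), that is, by 0.77 ± 0.05 (SE) on the log2 scale. Of the 9 breakdown genes tested, 4 were called: besides Nt5e, Ampd2 rose (0.15), and Nt5c3 and Samhd1 fell (-0.16 and -0.14). All 4 nucleoside transporters tested were called (30.5% of all genes were), Slc29a3 (0.19) and Slc29a1 (0.11) higher and Slc28a2 (-0.28) and Slc29a2 (-0.26) lower, though in each of them the media overlapped and the list had 2 to 4 calls when 1 culture was left out (2 without control replicate 4, osteoclast-conditioned replicate 2 or osteoclast-conditioned replicate 3). Among 10 regulators, 6 were called: Atf4 rose from 370 ± 15.6 to 432 ± 7.68 normalised CPM, Mycn, Mtor and Tsc2 rose by 0.21, 0.13 and 0.12, and Myc and its partner Max fell by 0.11 and 0.10. Of these calls, Nt5c3 and Slc29a2 were each lost in 11 of 24 alternatives, Slc28a2 in 7, and Myc and Max in 5 each.

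Of the genes in these lists, 9 had 0 counts in every culture, of which 4 (G6pdx, Aprt, Tk1 and Upb1) lie wholly inside the span of other annotated genes, and Nme2 and Prps1l3 by 99.9% and 99.8% of their span. How reads shared by overlapping genes were assigned is not given in the sources used here, so a 0 sets no upper limit on the level of these 6. For Cda, Dpys and Slc28a3, which overlap no other gene, 3 counts allow at most 0.138 to 0.194 CPM per culture. No difference between the media can be read from them.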
